A study of Mus musculus with 16 samples.

Results

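The comparison set cecal epithelium of mice carrying any of 3 defined gut communities against that of mice carrying none. Of the 16 GeneChips in the series, the 8 Mouse 430 2.0 GeneChips entered it: 6 from colonized mice and 2 from germ-free mice. A change was counted as shared by the 3 colonized states when limma's test of their mean against germ-free passed an adjusted p of 0.05 and all 6 colonized GeneChips lay on one side of both germ-free GeneChips. On that rule 12 genes rose and 8 fell, out of 12938 genes tested. The balance depended on the scaling: with median or 75th percentile scaling 2 probe sets were called higher and 12 lower, against 13 higher and 16 lower with the deposited scale, and 7 of the 20 genes were still called.

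The colonized mice had been associated for 10 days with Bacteroides thetaiotaomicron (Bt), with Bifidobacterium longum (Bl) or with both species (Bt/Bl), and the germ-free (GF) mice had no bacteria. All were adult NMRI mice on a standard chow rich in polysaccharides, and the study states that they were male and that GF mice were age-matched. Each state was 1 RNA pool from the laser-captured cecal epithelium of 4 mice, amplified and hybridized in duplicate (GeneChips 9130 and 9443 for Bt, 9134 and 9135 for Bl, 9132 and 9133 for Bt/Bl, 9128 and 9129 for GF). All 3 contrasts therefore share 1 GF pool. The spread between duplicates is that of amplification and hybridization, not that between mice, and every p value below compares pools. Signals are the deposited linear values, and a signal at or under 583.1, the median of all values in the table, was treated as a bound and raised to that floor.

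The cecal epithelium is a single layer of absorptive colonocytes, mucus-secreting goblet cells and a few hormone-secreting cells that renews itself from crypts. Bacteria reach it mainly as products and metabolites, and mammals raised without bacteria are known for a thin set of mucosal defences and for altered handling of lipid, bile acids and water. Defence proteins of this layer include lectins, ribonucleases and resistin-like molecules released by goblet and Paneth cells. Interferon-stimulated genes are a second, inducible layer of defence, while nuclear receptors such as PPAR alpha set the genes of fatty acid use.

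The identity of the samples was checked first. All 13 markers of gut epithelium, among them the adhesion gene Epcam and the keratin gene Krt20, exceeded the floor on all 8 GeneChips, and their summed signal lay between 1256934 and 1783766 on colonized and between 1356808 and 1518000 on GF GeneChips. The GF pool stood apart in other markers, as the plot of summed marker signals shows. The summed signal of 6 genes of the Y chromosome was 7816 to 9756 in colonized and 3256 to 3326 in GF mice, and that of Xist and Tsix, 2 RNAs of the X inactivation centre, was 4641 to 11230 in colonized and 17716 to 23340 in GF mice. Each gap depended on 1 gene: without Eif2s3y the Y chromosome sum was 2946 to 5822 in colonized and 2642 to 3255 in GF mice, and Tsix by itself also overlapped. Kdm5d ran the way of Eif2s3y, with 178 and 301 in GF mice, both under the floor. On colonized GeneChips Kdm5d had 868 to 1160, except 145 on GeneChip 9443. The remaining genes of the Y chromosome list overlapped GF, among them Sry, with 1906 and 1161 in GF mice. The labels give no sex, and the study states that the mice were male. Whether the pools held mice of different sex was not tested further. The summed signal of 11 fibroblast markers was 36261 to 79984 in colonized and 100135 to 101452 in GF mice, and that of 10 plasma and B cell markers 19737 to 61253 in colonized and 113733 to 131541 in GF mice. These 2 lists stayed apart without their called gene, at 18868 to 35968 in colonized and 41850 to 48435 in GF mice for fibroblast markers without Adamdec1, and at 6871 to 12706 in colonized and 17577 to 18038 in GF mice for plasma and B cell markers without Igha. Much of that second gap lay in Jchain, with 789 to 6182 in colonized mice and 9551 and 11759 in GF mice. A sum without both Igha and Jchain was not taken, so a shift of the whole list is not shown. The 9 markers of ileal bile acid handling gave 34222 to 53036 in colonized and 108902 to 140171 in GF mice, but without Fabp6 they overlapped, at 32663 to 51727 in colonized and 40873 to 45063 in GF mice. The 3′ over 5′ signal ratio of the Gapdh control was 8.93 to 17.6 in colonized and 5.66 to 7.26 in GF samples, and that of the β-actin control ran the other way, with 21.4 to 36.3 in colonized and 36.9 to 38.8 in GF samples. The part of RNA quality in the results was not tested. In pooled tissue, fewer cells of a type and less RNA per cell cannot be told apart. Because there was 1 GF pool, colonization and any other property of that pool cannot be told apart in any result below.

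**Figure D1:**
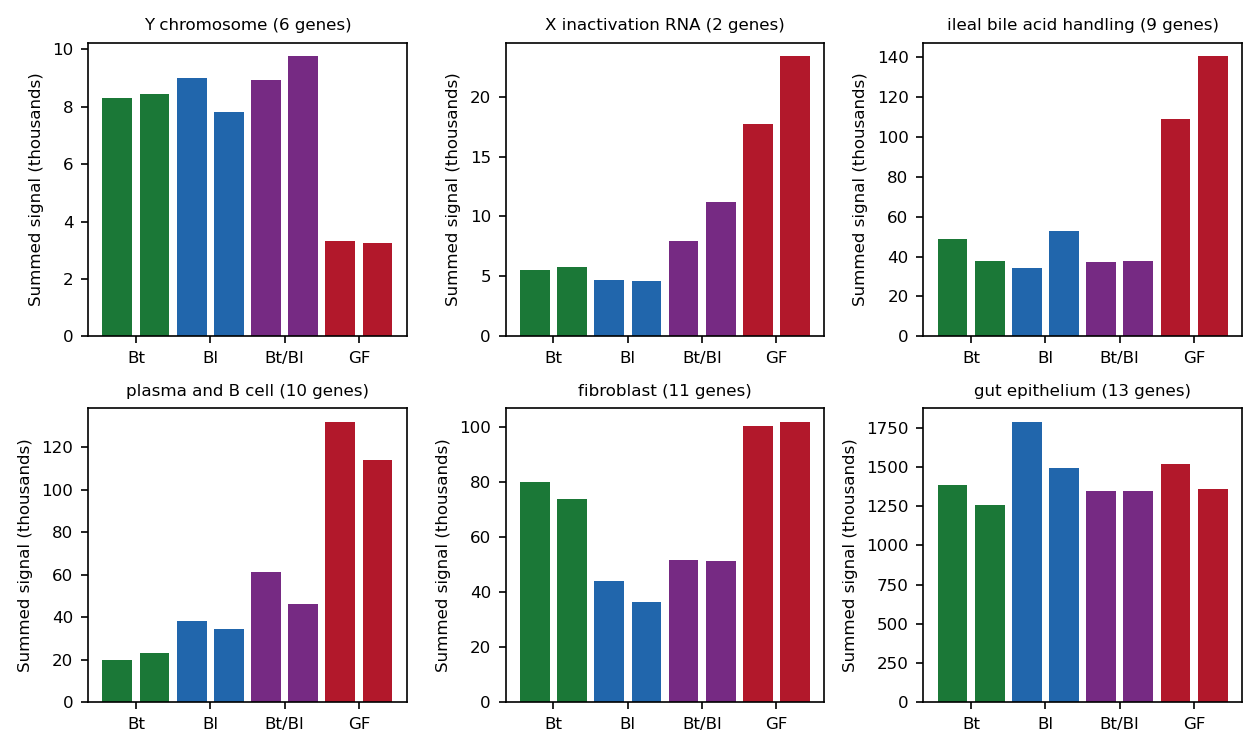
Summed linear signal of 6 marker lists on each of the 8 GeneChips, 1 bar per GeneChip on an axis that starts at 0 and is scaled as its label states, grouped as Bt, Bl, Bt/Bl and GF. The GF bars are the lowest for the Y chromosome list and the highest for the X inactivation, ileal, plasma and B cell, and fibroblast lists, whereas the gut epithelium sums overlap (1256934 to 1783766 in colonized and 1356808 to 1518000 in GF mice).

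Of 24869 probe sets tested, 13 (0.0523%) rose and 16 (0.0643%) fell in colonized mice, and all of them had their 6 colonized GeneChips outside the GF pair. Represented by its brightest probe set, each of 12 genes (0.0928% of genes tested) rose and each of 8 (0.0618%) fell. An unadjusted p under 0.05 was reached by 1268 probe sets (5.1%), and by 299 genes (2.31%) on the higher and 470 (3.63%) on the lower side. Lack of overlap alone was more frequent than a call: 589 probe sets (2.37%) lay above and 1004 (4.04%) under both GF values on all 6 colonized GeneChips, as did 357 genes (2.76%) above and 575 genes (4.44%) under. Fold changes of the called probe sets started at 2.13 among those that rose, where the 2 largest, of Eif2s3y and Plet1, are lower bounds because GF values lay under the floor, and ran from 2.18 to 56.2 among those that fell. An adjusted p under 0.05 in each of the 3 states separately was reached by 3 probe sets (0.0121%) that rose and 6 (0.0241%) that fell. The criterion nearest to the study's own, a 90% confidence bound over 2-fold in each state, was met by 5 probe sets (0.0201%) in the higher and 7 (0.0281%) in the lower direction. Genes named below that did not pass the test were chosen after their values were seen, except those of the sex chromosomes and those the study names.

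The 3 colonized states lay about as far from GF as from each other. The median absolute log2 difference over all tested probe sets was 0.331 between Bt and GF, 0.377 between Bl and GF and 0.285 between Bt/Bl and GF. Among colonized states it was 0.341 between Bt and Bt/Bl, 0.382 between Bl and Bt/Bl and 0.374 between Bl and Bt. Between 1032 and 2074 probe sets differed over 2-fold between a colonized state and GF, and between 1541 and 2184 did so between 2 colonized states. The duplicates of a state differed by a median of 0.28 to 0.52.

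**Figure D2:**
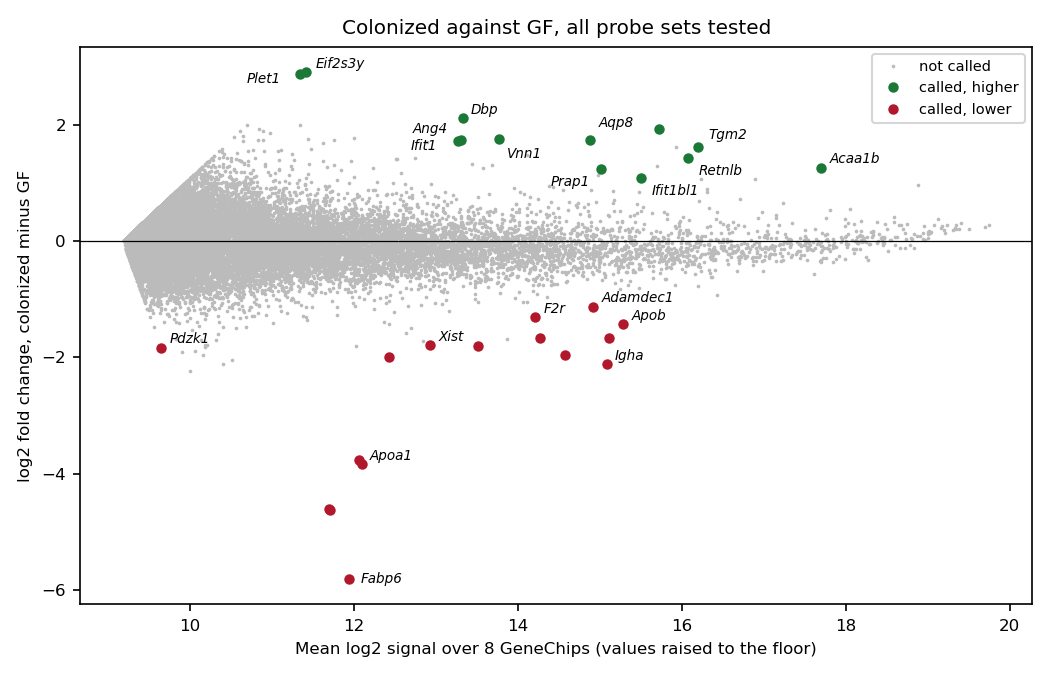
Log2 fold change of colonized minus GF against mean log2 signal over the 8 GeneChips, 1 point per tested probe set (24869 points). The called probe sets, 13 higher in green and 16 lower in red, lie at or beyond the edge of the cloud at their mean signal, with Fabp6 at -5.81 and Eif2s3y at 2.92.

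The promoters of 4 genes are shown because they belong to the groups the results turn on: a pair of interferon-stimulated genes, the water channel of the colonocyte and the ileal bile acid-binding protein. Each run is the 250 bases before the annotated start in RefSeq (GRCm38.p6), on the strand of the gene, and 15 of the 20 called genes had an entry. Capitals mark the core of the interferon-stimulated response element (GAAA, 2 bases of any kind, GAAA) in Ifit1 and Ifit1bl1, the E-box CACGTG in Aqp8, and TATAAA in Fabp6, each searched on both strands. The windows are chr19:34640639-34640888 (+) for Ifit1, chr19:34601969-34602218 (-) for 1 of 2 starts of Ifit1bl1, chr7:123462044-123462293 (+) for Aqp8 and chr11:43601563-43601812 (-) for Fabp6.
Ifit1: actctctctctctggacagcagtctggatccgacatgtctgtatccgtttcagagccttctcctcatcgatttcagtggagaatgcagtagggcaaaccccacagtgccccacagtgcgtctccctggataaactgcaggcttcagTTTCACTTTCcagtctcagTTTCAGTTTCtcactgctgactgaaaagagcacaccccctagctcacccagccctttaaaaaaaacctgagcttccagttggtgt
Ifit1bl1: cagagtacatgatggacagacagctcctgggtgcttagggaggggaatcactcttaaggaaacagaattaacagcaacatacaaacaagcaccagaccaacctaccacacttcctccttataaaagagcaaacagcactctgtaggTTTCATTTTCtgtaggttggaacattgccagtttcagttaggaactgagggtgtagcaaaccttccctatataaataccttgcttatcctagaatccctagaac
Aqp8: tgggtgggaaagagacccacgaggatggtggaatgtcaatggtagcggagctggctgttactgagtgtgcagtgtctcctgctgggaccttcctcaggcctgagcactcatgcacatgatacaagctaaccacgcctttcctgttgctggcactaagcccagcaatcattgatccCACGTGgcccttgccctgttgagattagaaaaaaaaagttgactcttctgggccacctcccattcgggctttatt
Fabp6: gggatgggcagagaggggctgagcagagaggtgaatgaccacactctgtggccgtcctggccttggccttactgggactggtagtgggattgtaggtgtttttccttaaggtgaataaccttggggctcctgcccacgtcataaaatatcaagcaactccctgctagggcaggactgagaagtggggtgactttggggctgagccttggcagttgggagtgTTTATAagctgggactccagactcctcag
Ifit1 held 2 matches to the interferon core, neither overlapping the other, and Ifit1bl1 held 1. All 3 lie on the strand opposite to the gene and so read TTTC, 2 bases, TTTC here. That motif occurred in 2.98% of 32851 windows of this length, and these were the 2 of 15 called genes that had it. Here and below a called gene counts when any of its windows matches, whereas the shares are per window, so they are not in the same unit. CACGTG occurred in 6.02% of windows and in 1 of the 15, Aqp8. TATAAA occurred in 12.4% of windows and in 6 of the 15. A direct repeat of AGGTCA with 1 spacer base, to which PPAR alpha pairs are known to bind, occurred in 0.0335% of windows and in 0 of the 15, which says only that these letters are not in the windows.

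Among genes of mucosal defence and the goblet cell, Retnlb and Ang4 rose. Retnlb encodes a resistin-like molecule that goblet cells secrete and that binds bacterial membranes. Its signal was 80494 and 89551 in Bt, 75687 and 100721 in Bl, 96333 and 91537 in Bt/Bl, against 31409 and 34152 in GF. The 3 colonized states were alike and well clear of GF, so that the mean rise was 2.71-fold (log2 fold change 1.44 ± 0.17 SE, adjusted p = 0.00738, limma), and each state passed the test by itself. It missed the threshold with median scaling (adjusted p = 0.197). Ang4 encodes an angiogenin-family ribonuclease with antimicrobial activity. It measured 6570 and 5535 in Bt, 46895 and 40107 in Bl, 9287 and 8912 in Bt/Bl, against 3818 and 4280 in GF. All 6 values exceeded GF, but the size of the rise ran between 1.49-fold in Bt and 10.7-fold in Bl, and the mean rise was 3.30-fold (adjusted p = 0.00433). A second Ang4 probe set overlapped GF in Bt (2554 and 4830 in Bt, 4125 and 2650 in GF) and did not pass (log2 fold change 1.17, adjusted p = 0.362). Probe sets of the angiogenin family can cross-hybridize with close relatives. The summed signal of 7 Paneth cell markers, Ang4 among them, was 30400 to 64115 in colonized and 24197 to 27738 in GF mice, but without Ang4 the sums overlapped, at 17220 to 30075 in colonized and 19916 to 23919 in GF mice. Lyz1, the lysozyme of Paneth cells, measured 21606 and 11157 in Bt, 8081 and 5773 in Bl, 15634 and 13218 in Bt/Bl, against 20428 and 15797 in GF (-0.64 on the log2 scale, adjusted p = 0.751).

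Some other members of the defence list lay on the same side without passing. Defence genes with a negative mean log2 fold change were Lyz1 (-0.64), Reg3b (-0.93, carried by Bl) and Defa31 (-2.23), none of them called. Of 16 antimicrobial and acute-phase genes measured, 2 rose, 0 fell, and 6 exceeded both GF values on all 6 colonized GeneChips, which is 37.5% against 2.76% of all genes. Their median log2 fold change was 0.78, against 0.04 over all genes tested. The lists were chosen with earlier results of these data known. Such shares, here and below, therefore describe the lists and are no test of them. Itln1, a lectin that recognizes microbial glycans, measured 6648 and 7700 in Bt, 7476 and 13031 in Bl, 6360 and 5553 in Bt/Bl, against 2432 and 3236 in GF (adjusted p = 0.115). Saa1, an acute-phase apolipoprotein, lay between 533027 and 656287 in colonized mice, against 288216 and 296403 in GF (0.97 on the log2 scale, adjusted p = 0.179). The related Saa2 measured 1802 to 3613 in colonized mice, against 438 and 933 in GF (adjusted p = 0.283). As its lower GF value was under the floor, Saa2 entered the test only through colonized states. Defa31 entered it only through its GF values. Reg4, a C-type lectin, had 0.81 on the log2 scale (adjusted p = 0.186).

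The C-type lectins Reg3b and Reg3g, which the study names, had no common direction across the states. Reg3b measured 405724 and 362467 in Bt and 252956 and 263622 in Bt/Bl, but 3803 and 4930 in Bl, against 136536 and 151076 in GF. Bt and Bt/Bl lay above GF and Bl far under it, so the mean of the 3 states gave a log2 fold change of -0.93 (adjusted p = 0.115) that describes no single state. Reg3g followed the same order, with 16629 and 9676 in Bt, 7321 and 7842 in Bt/Bl, 152 and 34 in Bl (both under the floor), against 2437 and 2154 in GF. The differences among the colonized states passed for both (adjusted p = 3.84e-07 for Reg3b and 0.00152 for Reg3g). On the second array type, the GlycoGeneChip, 1 of 2 probe sets for Reg3b gave 34227 and 27249 in Bt, 139 and 115 in Bl, 12641 and 15209 in Bt/Bl, against 2611 and 3912 in GF, so the order of the states was the same there. The second gave 194932 and 199690 in Bt, 3599 and 1194 in Bl, 110988 and 123018 in Bt/Bl, against 44347 and 57740 in GF, again with Bl under GF.

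Goblet cell genes and mucins had positive medians with 1 call. Of 12 goblet cell genes 1 rose (Retnlb) and 4 exceeded GF throughout (33.3%, against 2.76% of all genes), with a median of 0.28. Spink4, a secreted protease inhibitor of goblet cells, measured 108445 and 82259 in Bt, 106554 and 85713 in Bl, 84331 and 94255 in Bt/Bl, against 44905 and 43044 in GF, and just missed the threshold (log2 fold change 1.08, adjusted p = 0.0676). Of 5 mucins measured, 0 rose and 3 exceeded GF throughout (60%, median 0.80), with unadjusted p under 0.05 for 2. Muc2, the gel-forming mucin of the intestine, measured 89920 and 81136 in Bt, 59458 and 37734 in Bl, 33935 and 38645 in Bt/Bl, against 28272 and 30154 in GF (adjusted p = 0.279). The membrane mucin Muc4 had 2277 and 3541 in Bt, 3870 and 3102 in Bl, 5938 and 7952 in Bt/Bl, against 1913 and 1463 in GF, by its brightest probe set (1.28 on the log2 scale, adjusted p = 0.314), and another with a weak signal gave -0.17. Zbp1, a sensor of nucleic acids that the study also names, had 0.75 (adjusted p = 0.751), and its Bl values (956 and 863) lay within the GF range of 794 to 1305. The study, which used dChip values, reports both Muc4 and Zbp1 as raised in every colonized state, so for Zbp1 in Bl these values differ from its report. Isg15 had no probe set with a single gene symbol and was not analysed here.

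Among interferon-stimulated genes, Ifit1 and its relative Ifit1bl1 rose. Ifit proteins bind foreign RNA and block its translation. Ifit1 measured 9757 and 8443 in Bt, 6239 and 6728 in Bl, 43357 and 44125 in Bt/Bl, against 3390 and 4845 in GF. The mean rise was 3.38-fold (log2 fold change 1.76 ± 0.20 SE, adjusted p = 0.00562), but it was 10.8-fold in Bt/Bl and 1.60-fold in Bl. Ifit1bl1 had the same pattern at a higher signal, 41440 and 36600 in Bt, 43300 and 40984 in Bl, 105547 and 109044 in Bt/Bl, against 25265 and 27453 in GF (2.13-fold, adjusted p = 0.0236). The 2 genes are near relatives, and their probe sets may share signal. Of 24 type I interferon-stimulated genes 1 rose (Ifit1bl1 was not in the list), 0 fell, 4 exceeded GF throughout (16.7%, against 2.76% of all genes), and the state medians, whose difference was not tested, were 1.27 in Bt/Bl, 0.28 in Bt and -0.04 in Bl. Oas1a, an oligoadenylate synthetase, had 47424 and 30004 in Bt, 44681 and 30653 in Bl, 40022 and 46860 in Bt/Bl, against 19743 and 15901 in GF, and did not pass (log2 fold change 1.15, adjusted p = 0.157).

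Fatty acid use was marked by Vnn1 and Acaa1b. Vnn1 is a pantetheinase and a well-known target of PPAR alpha. It measured 39171 and 32339 in Bt, 6428 and 9519 in Bl, 24436 and 24425 in Bt/Bl, against 5024 and 6236 in GF (3.39-fold, adjusted p = 0.00636), and in Bl the margin over GF was small. A second Vnn1 probe set overlapped GF in Bl (3654 and 6296 in Bl, 5471 and 5602 in GF) and did not pass (adjusted p = 0.0699). Acaa1b, a peroxisomal thiolase, measured 392354 and 437043 in Bt, 270804 and 271379 in Bl, 164919 and 168837 in Bt/Bl, against 112718 and 107337 in GF (2.41-fold, adjusted p = 0.0182). Of 26 genes of fatty acid oxidation and PPAR targets, 2 rose, 0 fell, and 7 (26.9%, against 2.76% of all genes) exceeded GF throughout, with a median of 0.17. Among the 7 were the kinase Pdk4, which restrains pyruvate oxidation, with 2978 and 2520 in Bt, 2720 and 2760 in Bl, 2751 and 2195 in Bt/Bl, against 616 and 806 in GF (log2 fold change 1.91, adjusted p = 0.115), and the lipid droplet gene Plin2 (0.87, adjusted p = 0.114). Of 20 genes of the citric acid cycle 0 were called and 5 lay under GF throughout (25%, against 4.44% of all genes), with a median of -0.23, and 2 had an unadjusted p under 0.05.

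Aqp8, Dbp, Tgm2, Prap1, Plet1 and Eif2s3y completed the genes that rose. Aqp8, the water channel of the colonocyte, was even across the states, with 33810 and 39872 in Bt, 38596 and 49985 in Bl, 42880 and 42730 in Bt/Bl, against 10169 and 14517 in GF. It rose 3.38-fold (log2 fold change 1.76 ± 0.19 SE, adjusted p = 0.00433) and passed in each state, but missed the threshold with median scaling (adjusted p = 0.146). Of 30 genes of water, chloride and bicarbonate transport it was the 1 called, where 0.0928% of all genes rose, and the list's median was -0.10. Dbp, an output transcription factor of the circadian clock, measured 29501 and 18554 in Bt, 18078 and 14120 in Bl, 9300 and 8142 in Bt/Bl, against 3002 and 3863 in GF (4.35-fold, adjusted p = 0.00433). Of 14 clock genes it alone rose. Besides Dbp, Cry2 and Tef exceeded GF throughout (adjusted p = 0.751 for each), where 2.76% of all genes did. Both GF values of Cry2 (452 and 113) lay under the floor and its lowest colonized value was 632, so it entered the test only through colonized states. The core gene Clock was at -0.02 and Arntl at -0.19. The hour of sampling of the pools was not in the labels.

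Tgm2, a transglutaminase that crosslinks proteins, measured 148963 and 107108 in Bt, 86390 and 53314 in Bl, 121284 and 109517 in Bt/Bl, against 35618 and 29057 in GF (3.10-fold, adjusted p = 0.0182). Of its other probe sets 1 was called as well (1.95 on the log2 scale), 1 lay just outside (1.64, adjusted p = 0.0501), and 2 with weak signals were not called. Prap1, a lipid-binding secreted protein of the gut, measured 58850 and 41958 in Bt, 51414 and 39813 in Bl, 30592 and 30605 in Bt/Bl, against 18873 and 15754 in GF (2.38-fold, adjusted p = 0.0405). Its second, weaker probe set gave -0.17 (adjusted p = 0.956), so the direction rests on 1 probe set that can cross-hybridize. Plet1, a surface protein of epithelial progenitors, measured 3140 and 3336 in Bt, 2703 and 1637 in Bl, 10593 and 12633 in Bt/Bl, against 365 and 280 in GF. As both GF values were under the floor, the rise was at least 7.35-fold (adjusted p = 0.00433). Plet1 entered the test only through its colonized values, and without the filter on low signals it did not pass (adjusted p = 0.0609, limma). Another Plet1 probe set ran the other way, at -1.23 (adjusted p = 0.751). Eif2s3y, a translation initiation factor subunit encoded on the Y chromosome, measured 5056 and 4310 in Bt, 3201 and 4872 in Bl, 5657 and 4401 in Bt/Bl, against 71 and 614 in GF, where 1 of 2 GeneChips was above the floor. The rise was therefore at least 7.54-fold (adjusted p = 0.00426), and its log2 fold change of 2.92 became 3.92 with a floor of 144.7 and 4.43 with a floor of 16. Eif2s3y too entered the test only through its colonized values, and without the filter it did not pass (adjusted p = 0.0605, limma). It was the 1 call among 5 measured Y chromosome genes. Kdm5d had 868 and 145 in Bt, 1036 and 1040 in Bl, 1160 and 1097 in Bt/Bl, against 178 and 301 in GF (adjusted p = 0.751), and Sry, Usp9y and Uty had log2 fold changes of 0.35, 0.09 and -0.18.

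**Figure D3:**
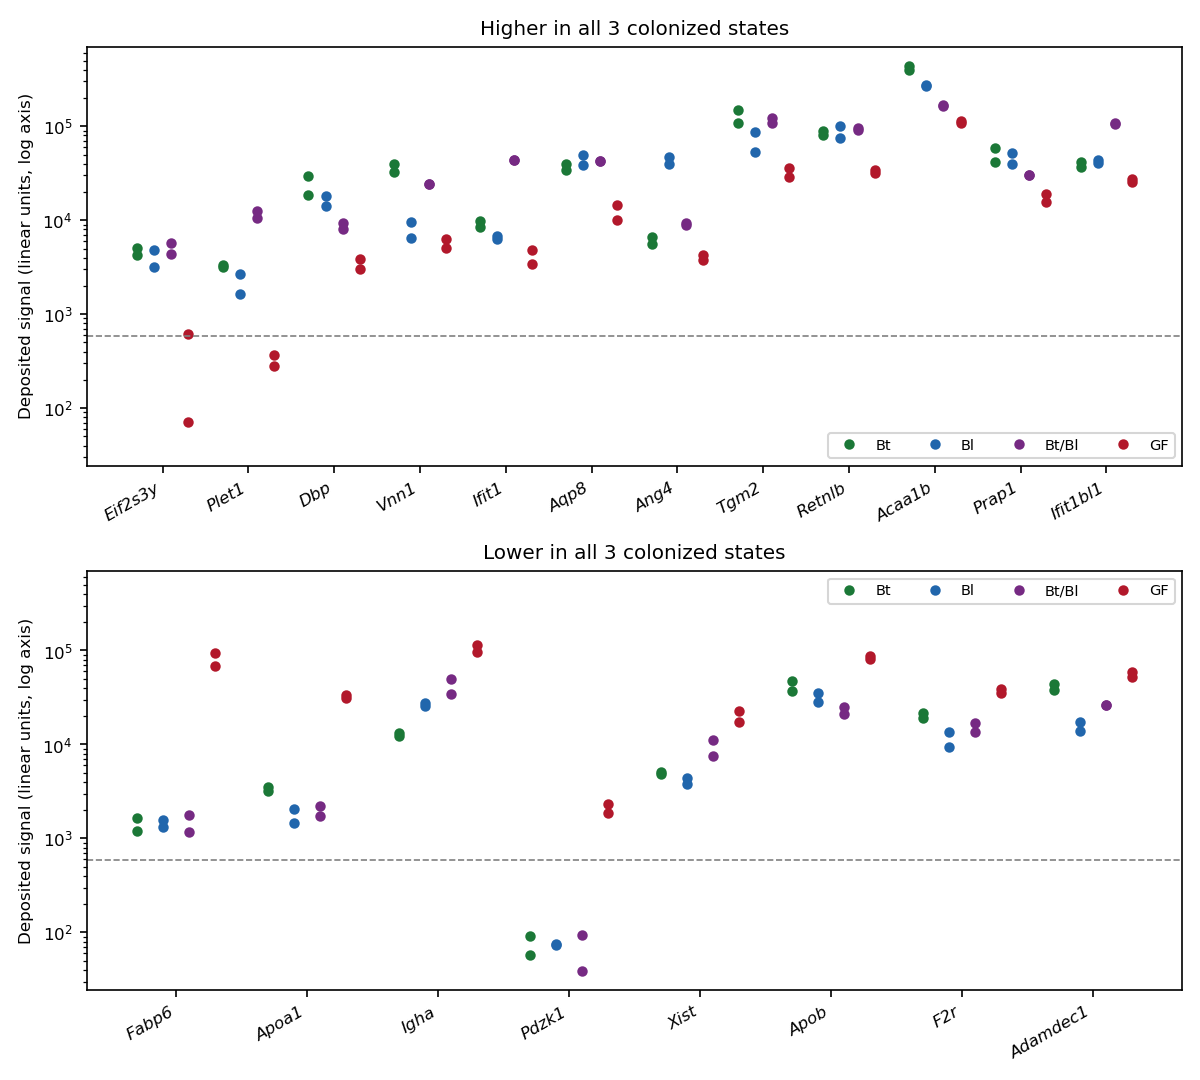
Deposited signal (log axis) of the 12 genes that rose and the 8 that fell, by their brightest probe set, 1 point per GeneChip, with Bt, Bl, Bt/Bl and GF from left to right for each gene and the floor of 583.1 as a dashed line. No colonized point overlaps GF for any of the 20 genes. Both GF points of Plet1, 1 of Eif2s3y and all 6 colonized points of Pdzk1 lie under the floor.

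Among the genes that fell, Fabp6 stood far out. It encodes the cytosolic bile acid-binding protein of the ileal enterocyte. Its signal was 1210 and 1636 in Bt, 1558 and 1309 in Bl, 1179 and 1798 in Bt/Bl, against 68029 and 95108 in GF. All colonized values lay within a narrow band, and the fall was 56.2-fold (log2 fold change -5.81 ± 0.28 SE, adjusted p = 1.96e-05). Of 6 genes of ileal bile acid handling measured it was the 1 that fell, where 0.0618% of all genes fell, and 0 rose. Its functional partners, the ileal bile acid importer Slc10a2 and the exporter subunit Slc51b, were not called. Their log2 fold changes were -0.76 and -0.08 (adjusted p = 0.751 and 0.921, limma). For Slc10a2 the confidence interval ran from -1.98 to 0.45, which does not show that it was unchanged. Slc10a2 measured 1165 and 832 in Bt, 761 and 1348 in Bl, 938 and 635 in Bt/Bl, against 860 and 2817 in GF. Slc51b measured 17438 and 10933 in Bt, 14006 and 16780 in Bl, 11238 and 11959 in Bt/Bl, against 14378 and 14185 in GF. Both overlapped GF. The summed signal of the ileal list without Fabp6 overlapped as well, as given above.

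Lipoprotein genes formed the next group. Apoa1, the main protein of high-density lipoprotein, measured 3501 and 3162 in Bt, 1478 and 2047 in Bl, 1748 and 2223 in Bt/Bl, against 33239 and 31104 in GF (14.3-fold lower, log2 fold change -3.84 ± 0.24 SE, adjusted p = 1.04e-04). All 4 of its probe sets were called, at -3.77 to -4.62, and each state passed by itself. Apob, the structural protein of chylomicrons, measured 36918 and 47778 in Bt, 28165 and 35409 in Bl, 21192 and 25030 in Bt/Bl, against 86650 and 81167 in GF (2.68-fold lower, adjusted p = 0.0106). A second Apob probe set was weak and not called (-0.80, adjusted p = 0.751). Pdzk1, a scaffold protein of the brush border, measured 39 to 95 on the 6 colonized GeneChips, all under the floor, against 2305 and 1863 in GF, and so fell at least 3.55-fold (adjusted p = 0.0464). It entered the test only through its GF values, and all 6 colonized values were set to the floor, so they had no spread of their own. Without the filter on low signals Pdzk1 did not pass (adjusted p = 0.288, limma). Of 20 genes of intestinal lipid absorption and export 2 fell and 0 rose, yet the list's median was 0.17. Dgat2, a triglyceride synthase, and Apoc2 exceeded GF throughout (adjusted p = 0.179 and 0.326), and Apoa4 and Apoc3, neighbours of Apoa1 in function, overlapped GF (adjusted p = 0.751 and 0.94). Of 30 markers of the small-intestinal enterocyte 3 fell (Apoa1, Apob and Pdzk1), 0 rose, and 7 (23.3%) lay under GF throughout against 4.44% of all genes, while the list's median was -0.11 and Alpi, Apoc2 and Mttp exceeded GF throughout. By that probe set Mttp, with 99 and 734 in GF, entered the test only through colonized states. A second probe set of Mttp, the lipid transfer protein of chylomicron assembly, ran the other way (-1.05, adjusted p = 0.0883). That probe set was under the floor on all 6 colonized GeneChips and entered the test only through its GF values.

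Igha, F2r and Adamdec1 also fell. Igha, the heavy chain of immunoglobulin A, measured 12171 and 13110 in Bt, 25565 and 27712 in Bl, 49896 and 34067 in Bt/Bl, against 113964 and 95694 in GF. The fall was 4.35-fold (log2 fold change -2.12 ± 0.18 SE, adjusted p = 9.43e-04), and a second probe set was called at -1.95. Jchain, which joins immunoglobulin A into dimers, measured 789 and 2226 in Bt, 3497 and 3590 in Bl, 6182 and 5885 in Bt/Bl, against 9551 and 11759 in GF, the same order of states, and did not pass (log2 fold change -1.80, adjusted p = 0.167). Of 7 plasma and B cell genes 1 fell and 0 rose (median -0.64), and Ms4a1, Ighm and Pou2af1, which mark B cells, had positive log2 fold changes of 0.41, 0.19 and 0.18 that were not called. The 4 further probe sets that fell have no single gene symbol, at -1.66, -1.66, -1.80 and -1.99 on the log2 scale. Adamdec1, a metalloprotease that lamina propria cells make, measured 44297 and 37624 in Bt, 13749 and 17394 in Bl, 26266 and 26316 in Bt/Bl, against 51699 and 59602 in GF (2.18-fold lower, adjusted p = 0.0405). It was the 1 call among 11 fibroblast markers, of which 4 (36.4%, against 4.44% of all genes) lay under GF throughout, with a median of -0.85. F2r, the thrombin receptor, measured 21583 and 19143 in Bt, 9429 and 13498 in Bl, 17072 and 13432 in Bt/Bl, against 35582 and 39364 in GF (2.47-fold lower, adjusted p = 0.0377), and a second probe set was not called (-0.67). These markers belong to cells beneath the epithelium, and the part that captured lamina propria had in these results was not tested.

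Xist, the RNA that coats the inactive X chromosome, measured 4908 and 5086 in Bt, 4405 and 3753 in Bl, 7541 and 11176 in Bt/Bl, against 17157 and 22762 in GF. It fell 3.46-fold (log2 fold change -1.79 ± 0.22 SE, adjusted p = 0.0106), and its 2 other probe sets lay under GF throughout without passing (-1.96 and -1.78). Tsix, its antisense partner, was at 0.16 (adjusted p = 0.776). Of 394 X-linked genes tested 6 (1.52%) exceeded and 14 (3.55%) lay under both GF values throughout, near the shares over all genes. With the probe sets of both sex chromosomes left out of the fit, 12 probe sets rose and 15 fell, and all 27 had been called before. That fit keeps the values of every other probe set as they were. Neither it nor the X-linked shares test whether the pools differed in sex.

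**Figure D4:**
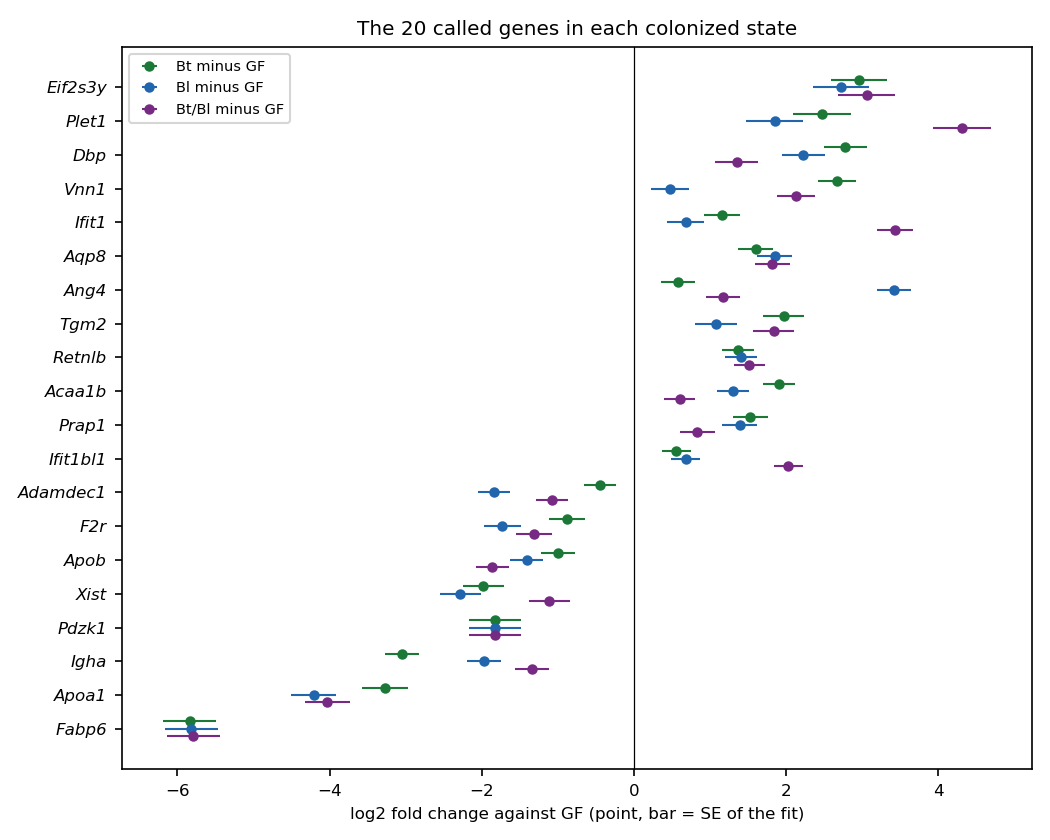
Log2 fold change against GF in each colonized state for the 20 called genes, with points for Bt, Bl and Bt/Bl and bars for the standard error of the fit. Retnlb, Aqp8, Eif2s3y and Fabp6 have bars that overlap among the 3 states, whereas Ang4 is highest in Bl and Ifit1 in Bt/Bl.

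A shared direction did not mean a shared size. Of the called genes that rose, 4 (Ang4, Ifit1, Vnn1 and Ifit1bl1) also differed among the 3 colonized states at an adjusted p of 0.05, and of those that fell 0 did. Over all probe sets 13 (0.0523%) passed that test, in which GF takes no part. Ang4 was highest in Bl (adjusted p = 0.00152), Ifit1 and Ifit1bl1 in Bt/Bl (0.00313 and 0.0289) and Vnn1 in Bt (0.0261). Plet1 was also highest in Bt/Bl, though its differences among states did not pass (adjusted p = 0.162). For Retnlb, Aqp8, Eif2s3y and Fabp6 the adjusted p was 0.759 or more, which does not show that the states were equal, and Pdzk1, under the floor on all 6 colonized GeneChips, could not be compared.

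The remaining genes over 2-fold in every state were numerous and unproven. Beyond the calls, 37 genes were over 2-fold higher and 31 over 2-fold lower in each of the 3 states with no overlap with GF (43 and 36 with the calls, 0.332% and 0.278% of genes). Some of them passed the filter only through the side where they were high. Neurl3, for example, had both GF values under the floor (273 and 490), and Dcaf17 had all 6 colonized values under it (107 to 478). Akr1c18, a hydroxysteroid dehydrogenase, measured 6584 and 6390 in Bt, 2747 and 3526 in Bl, 2657 and 2280 in Bt/Bl, against 674 and 1236 in GF (log2 fold change 2.01, adjusted p = 0.0676). Trim40, a ubiquitin ligase of the gut epithelium, had 22735 and 13421 in Bt, 34240 and 22712 in Bl, 25097 and 24798 in Bt/Bl, against 6651 and 10007 in GF (1.49, adjusted p = 0.0801). On the lower side, Tfrc, the transferrin receptor, had 6415 and 8125 in Bt, 8252 and 25450 in Bl, 14321 and 12237 in Bt/Bl, against 31653 and 40152 in GF (-1.68, adjusted p = 0.186), while a weaker probe set of it gave 0.11. Cyp1a1, an enzyme induced through the aryl hydrocarbon receptor, had 647 to 1845 on colonized GeneChips, against 3051 and 3110 in GF (-1.70, adjusted p = 0.528). The laminin gene Lamb1, of the basement membrane, was at -1.41 (adjusted p = 0.0913) and the heat shock gene Hspa1a at -1.36 (adjusted p = 0.336). The defensin Defa31 of Paneth cells had 104 to 1137 in colonized mice, against 3007 and 3566 in GF (adjusted p = 0.186), by a probe set that can cross-hybridize. As stated above, it entered the test only through its GF values. The chemokine Ccl25, which draws lymphocytes to the small intestine, was under the floor on all 6 colonized GeneChips, against 2272 and 1150 in GF. Ccl25 likewise entered the test only through its GF values. On the GlycoGeneChip its 2 probe sets overlapped between colonized mice (95 to 2361 for the brighter) and GF (2057 and 2723).

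**Figure D5:**
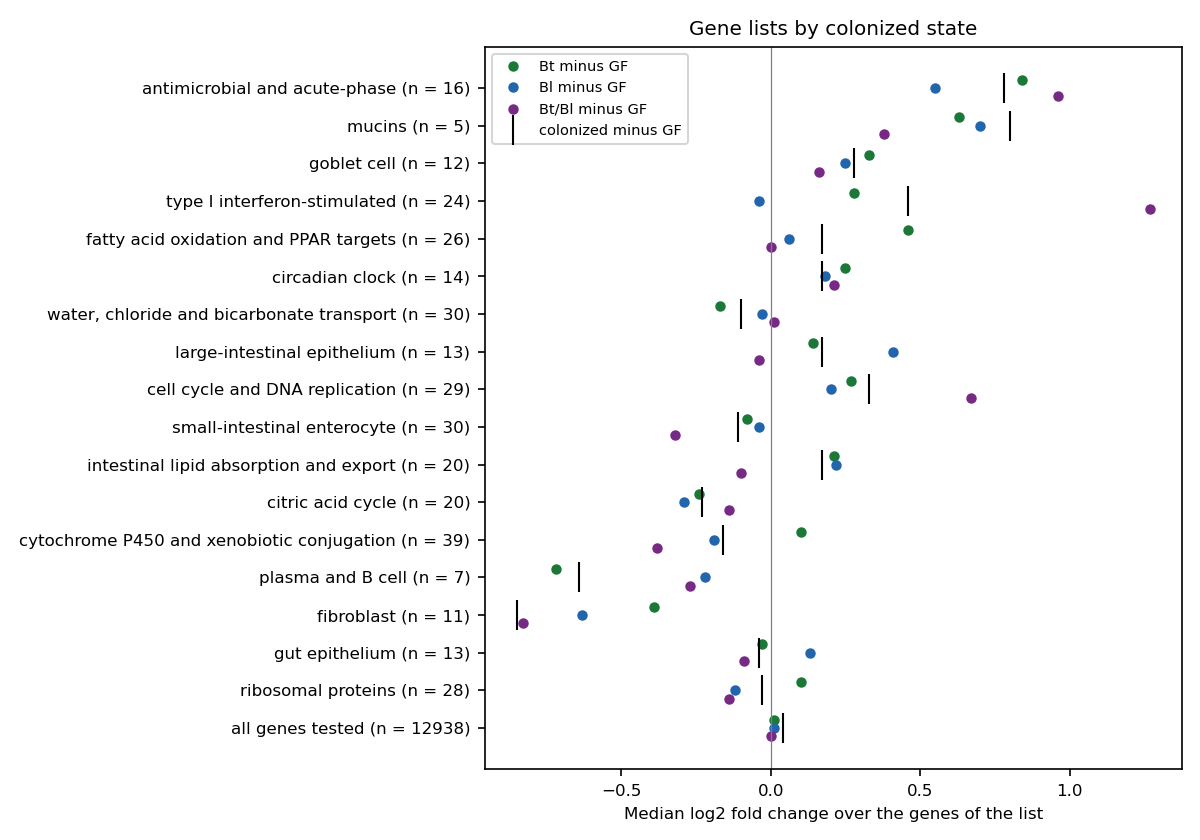
Median log2 fold change against GF over the measured genes of 17 lists and of all genes tested, with points for Bt, Bl and Bt/Bl and a vertical mark for the mean contrast of colonized minus GF. The antimicrobial list has its mark at 0.78 and the fibroblast list at -0.85, while all genes lie at 0.04, and the interferon list lies at 1.27 in Bt/Bl and at -0.04 in Bl.

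Other lists gave few or no calls. Of 29 cell cycle genes 0 were called, 21 were positive and 4 exceeded GF throughout (13.8%, against 2.76% of all genes, median 0.33), with unadjusted p under 0.05 for 4. Of 39 cytochrome P450 and conjugation genes 0 were called and 6 lay under GF throughout (15.4%, against 4.44% of all genes), among them Cyp3a13 (-0.97, adjusted p = 0.143). Of 13 markers of large-intestinal epithelium 1 rose (Aqp8), with a median of 0.17. Of 28 ribosomal protein genes 0 were called and 0 lay outside GF, and the median was -0.03. Of 31 respiratory chain genes 0 were called and 1 lay outside GF, where 2.76% of all genes lay above and 4.44% under GF throughout. Lists of T cells and of macrophages and dendritic cells held 0 calls and 0 genes outside GF among 6 and 9 measured. Over all genes 0.0928% rose and 0.0618% fell by the same rule, so 0 calls in a list does not set it apart.

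The calls depended on how the spread was taken and on single GeneChips. When duplicates were averaged and the 3 colonized pools were set against the 1 GF pool, 1 probe set, that of Fabp6, passed. With GF GeneChip 9128 left out 0 probe sets passed, with GF GeneChip 9129 left out 1345 passed (25 higher and 1320 lower), and with either Bt/Bl GeneChip left out 3 passed in each case. Without a filter on low signals 1 probe set was called higher and 19 lower, and 3 of the 20 genes were still called. When the 6 colonized GeneChips were fitted as 1 group, 14 of the 20 genes were still called, and Ang4 (adjusted p = 0.621), Ifit1 (0.573), Ifit1bl1 (0.562), Adamdec1 (0.365), Vnn1 (0.233) and Acaa1b (0.189) were not. The direction of all 20 genes by their named probe sets held in each of these fits.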

How the data were processed

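Cecal epithelium was laser-captured, RNA of 4 mice was pooled for each state and amplified in 2 independent reactions, and a GeneChip was hybridized with each, per the study's methods. The deposited values are linear signal intensities that the authors made with MAS5 (version not given in the sources used here) on a common scale per GeneChip, without detection calls. The 45101 probe sets of 8 Mouse 430 2.0 GeneChips were used, with 64 control probe sets left out. The 8 GlycoGeneChips served only for values of named genes. The study's own analysis used dChip.

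Values under 583.1, the median of the table, were set to it before log2 transformation. The 24869 probe sets for which 1 or more states had both GeneChips over that median were tested. The fit used limma 3.58.1 in R 4.3.3 (1 coefficient per state, eBayes with intensity trend, 4 residual degrees of freedom, Benjamini-Hochberg over all probe sets kept, threshold 0.05, two-sided). An exact permutation test of 6 GeneChips against 2, with the p of 1 tail doubled, could not have gone below p = 0.0714. That bound takes the GeneChips as independent, whereas they are duplicates of pools, so the bound over pools is higher. Of the probe sets, 34958 had 1 gene symbol in the platform annotation, 932 several and 9211 none. A gene is its brightest kept probe set. The comparison, the genes named and the 54 lists were chosen with earlier results of these data known. Named were the 15 largest changes in each direction among called genes, genes called in each state, called list members, sex chromosome genes and genes the study names in all states. Simulated data were used to check the fit, and more unchanged probe sets passed than the nominal rate. The number of GeneChips limits the precision. Alternatives were other scalings, floors, filters, models of spread and probe sets, and each GeneChip or state left out. A fit without the probe sets of the sex chromosomes was added after seeing the data.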

Additional observations from a re-analysis of the deposited data

Results flagged for a closer look

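Of the 29 named genes checked, 0 had a colonized GeneChip far from the 5 others, and 6 differed among the 3 colonized states by a test of the difference itself. The adjusted p was 3.84e-07 for Reg3b, 0.00152 for Reg3g, 0.00152 for Ang4, 0.00313 for Ifit1, 0.0261 for Vnn1 and 0.0289 for Ifit1bl1. Mean signals were 384096 in Bt, 258289 in Bt/Bl and 4366 in Bl for Reg3b, and 13152 in Bt, 7581 in Bt/Bl and 93 in Bl for Reg3g. Ang4 averaged 6052 in Bt, 9100 in Bt/Bl and 43501 in Bl, Ifit1 averaged 9100 in Bt, 43741 in Bt/Bl and 6484 in Bl, Vnn1 averaged 35755 in Bt, 24430 in Bt/Bl and 7973 in Bl, and Ifit1bl1 averaged 39020 in Bt, 107296 in Bt/Bl and 42142 in Bl.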

How the results depend on the processing

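All 20 named calls kept their direction under every alternative run, except that Prap1 gave -0.17 with its plain probe set, as did Muc4, which was not called. As reported, 29 probe sets were called (13 higher, 16 lower, 44.8% higher), 9 in each state, 12 by the 2-fold bound and 13 among the colonized states. Totals below also count probe sets past the threshold that overlapped GF. Median scaling and 75th percentile scaling each gave 14 calls (2 higher, 14.3%), 5 in each state and 6 among states, with the median of all probe sets at -0.102 and -0.066 against 0.068 as reported. Quantile normalization gave 20 higher (55.6%). A floor at the 25th percentile gave 60 calls (27 higher, 32 lower), 15 in each state, 32 by the bound and 22 among states. A floor of 16 gave 45, 23 of them higher, 14 in each state and 58 by the bound. Without a filter 1 was higher, 14 were called in each state and 48 among states. A filter at the 75th percentile gave 47, 24 of them higher, and 22 among states, and a filter on the mean signal gave 5 in each state and 6 among states. Without the intensity trend 7 were called (2 higher, 5 lower), 4 in each state and 4 among states. Duplicates averaged as pools gave 1 (0 higher, 1 lower). Leaving out Bt or Bl gave 0 calls (0 higher, 0 lower, 0 in each state) with 23 and 30 by the bound, and leaving out Bt/Bl gave 1 (0 higher, 1 lower, 0 in each state) with 24 by the bound. With 1 GeneChip left out, probe sets past the threshold, overlapping with GF or not, ran from 0 to 2948, those that also had all colonized GeneChips on 1 side of GF ran from 0 to 83 higher and 0 to 1320 lower, with 0 to 1144 in each state, 12 to 111 by the bound and 0 to 4135 among states, where the lone GeneChip was assumed to vary like the other groups. Without GF GeneChip 9128 there were 0 calls, without 9129 there were 1345, and without either Bt/Bl GeneChip 3. Among genes not called, the sign turned for Tsix (-0.03 with quantile normalization, -0.01 with median scaling, -0.42 and -0.65 with the lower floors), Reg3g (-0.27 with a floor of 16, -0.13 without Bt), Reg3b (1.13 without Bl), Uty (0.06 without GF GeneChip 9129 and 0.12 without Bl GeneChip 9135, in a range of -0.51 to 0.12 with 1 GeneChip left out, and 0.01 without Bt/Bl), Sry (0 without GF GeneChip 9129, in a range of 0 to 0.71) and Usp9y (0 without Bt/Bl). The cause was not tested. No paired analysis was possible because the GeneChip numbers are shared by no 2 states.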
